A study of Homo sapiens with 16 samples.

Results

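The 10 genes described here belong to the pathway that runs from the receptors of the interleukin-6 (IL6) family to STAT3 and its inhibitors, and were followed over HGF stimulation of lung cancer cells. They were chosen by symbol from the deposited gene table, which makes 10 of its 42351 genes, and all 10 were tested. They are the receptor subunits IL6ST and OSMR, the transcription factor STAT3, the inhibitors SOCS1, SOCS2, SOCS3 and CISH, and PIM1, BCL3 and CEBPD, which are known as genes that STAT3 can induce. RNA was taken after 0, 3, 6 or 12 h of HGF, the ligand of MET. The cells expressing wt MET were A549, a lung adenocarcinoma line by the sample labels. Those expressing MET∆14 were NCI-H596, a lung adenosquamous carcinoma line. By the study, NCI-H596 expresses only the mutated MET allele, whose mRNA skips exon 14. Each of the 8 conditions had 2 libraries, called biological duplicates in the study, and their poly(A) RNA was sequenced to give 16 libraries. All cells, those at 0 h included, had been deprived of serum, for 12 h by the labels and for 24 h by the study's methods. The study's text uses the name WT for another adenocarcinoma line, EKVX, whereas the labels of these libraries name A549. Each MET status is 1 cell line, so that the line and the form of MET cannot be told apart. Untreated cells were sampled only at 0 h, and a change over hours without HGF cannot be told apart from a response to it.

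Cytokines of the IL6 family bind receptors that share the signal-transducing chain gp130, the product of IL6ST, which pairs with another chain such as the oncostatin M receptor encoded by OSMR. The receptors hold JAK kinases, which phosphorylate STAT3. Phosphorylated STAT3 forms dimers, enters the nucleus and binds palindromic sites, often of the form TTCCNGGAA or, more loosely, TTCNNNGAA. Genes of the SOCS family (SOCS1, SOCS2, SOCS3 and CISH) are induced by STAT factors. SOCS3 is a classical target of STAT3, whereas CISH is best known as a target of STAT5. The SH2-domain proteins of the family block JAK kinases or receptors and so close a feedback loop. MET can also reach STAT3, and STAT3 is activated by phosphorylation, which RNA counts do not show.

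Total counts ranged from 10158590 to 23909304 per library. As a check of the label A549, a line known to lack the CDKN2A locus, CDKN2A had 0 counts in the 8 wt MET libraries and 1466 to 3464 counts in the MET∆14 libraries. The epithelial keratin KRT8 reached 493 to 991 CPM with wt MET and 541 to 904 CPM with MET∆14, and KRT18 1213 to 1523 and 358 to 701 CPM. The epithelial genes EPCAM (0.868 to 2.97 CPM) and CDH1 (2.54 to 12.6 CPM) were low with wt MET. With MET∆14 they reached 24.4 to 37.4 and 80.65 to 124.5 CPM. Of the squamous genes, KRT5 reached 1743 to 2461 CPM and TP63 96.5 to 164 CPM with MET∆14, but SOX2 at most 2.35 CPM. The lung factor NKX2-1 had 2 to 18 counts with wt MET and 0 or 1 count with MET∆14. The leukocyte gene PTPRC had at most 2 counts in any library, whereas the collagen gene COL3A1 (170 to 328 CPM) and CD14 (6.79 to 22.2 CPM) were detected in the MET∆14 libraries. The MET∆14 replicates at 12 h differed from each other. Replicate 2 correlated better with replicate 2 at 6 h (r = 0.9868 across genes) than with its own replicate (r = 0.9816). Replicate 1 reached no higher r than 0.9816 with any library. The printed changes from 0 to 12 h with MET∆14 are therefore also given without replicate 2. Without replicate 1 the log2 changes of IL6ST (0.23), OSMR (0.62), STAT3 (0.09), SOCS1 (-0.15), SOCS3 (-0.63) and CEBPD (-0.71) were smaller in size than with both. Those of BCL3 (-0.90) and PIM1 (0.12) were larger.

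The 300 bases upstream of the start of a gene's main transcript (MANE Select, hg38) were searched on both strands for TTCCNGGAA and TTCNNNGAA, where N is any base; each TTCCNGGAA is also a TTCNNNGAA. Of 19060 such windows, 1.19% held the first motif and 7.0% the second. The windows of the inhibitors CISH and SOCS1 serve as examples of one with matches and one without, and say nothing of the other members. The CISH window (chr3:50611775-50612074, minus strand) held 4 matches, 241, 230, 129 and 112 bases before the start, of which those at 241 and 112 bases were of the stricter form. The AP-1 motif TGANTCA, which 5.75% of all windows held, was in neither of these windows. The CISH window is shown 5′ to 3′, with the matches in capitals, beside that of SOCS1, which had no match to either motif (chr16:11256205-11256504, minus strand). A match is a string of letters and not a measured binding site.
CISH: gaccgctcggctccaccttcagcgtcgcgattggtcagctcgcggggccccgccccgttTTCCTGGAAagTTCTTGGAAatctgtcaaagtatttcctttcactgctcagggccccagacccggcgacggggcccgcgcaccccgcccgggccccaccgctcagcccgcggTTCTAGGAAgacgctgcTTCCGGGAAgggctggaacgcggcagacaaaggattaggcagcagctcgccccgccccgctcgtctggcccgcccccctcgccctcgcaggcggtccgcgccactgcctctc
SOCS1: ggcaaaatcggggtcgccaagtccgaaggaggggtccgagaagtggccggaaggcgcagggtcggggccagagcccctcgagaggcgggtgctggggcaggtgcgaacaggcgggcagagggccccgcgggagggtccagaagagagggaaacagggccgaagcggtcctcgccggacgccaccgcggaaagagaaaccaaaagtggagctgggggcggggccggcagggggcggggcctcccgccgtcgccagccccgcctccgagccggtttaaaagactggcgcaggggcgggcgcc

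Before HGF, the order of the genes differed between the lines. Levels were compared between genes as RPKM, which is CPM, the counts scaled to the same library size, divided by the kilobases of annotated exon. That length joins the exons of all annotated transcripts, expressed or not, and the order, here and with HGF, depends on it. In mean CPM at 0 h with wt MET, IL6ST (234.6) and STAT3 (198.2) lay above SOCS3 (108.6) and PIM1 (70.1). In serum-deprived wt MET cells, OSMR (41.1 ± 3.63 RPKM, SD, n = 2) and SOCS3 (39.7 ± 0.773) were highest and their libraries overlapped. PIM1 (23.1 ± 3.03), IL6ST (19.5 ± 1.31) and STAT3 (17.7 ± 0.961) followed without overlap. SOCS2 (6.53 ± 1.54) and BCL3 (5.90 ± 0.587) overlapped, and CEBPD (3.80 ± 0.587), SOCS1 (0.460 ± 0.0358) and CISH (0.0426 ± 0.0207) were lowest. In MET∆14 cells OSMR (50.1 ± 0.394 RPKM, n = 2) was again first, but CEBPD (40.1 ± 5.55) came second, ahead of IL6ST (22.8 ± 0.389), SOCS3 (15.5 ± 0.561) and STAT3 (12.3 ± 0.0505). PIM1 (8.38 ± 0.109) and BCL3 (7.92 ± 0.922) overlapped there, and SOCS1 (3.04 ± 0.222), SOCS2 (0.839 ± 0.123) and CISH (0.395 ± 0.122) were lowest.

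**Figure D1:**
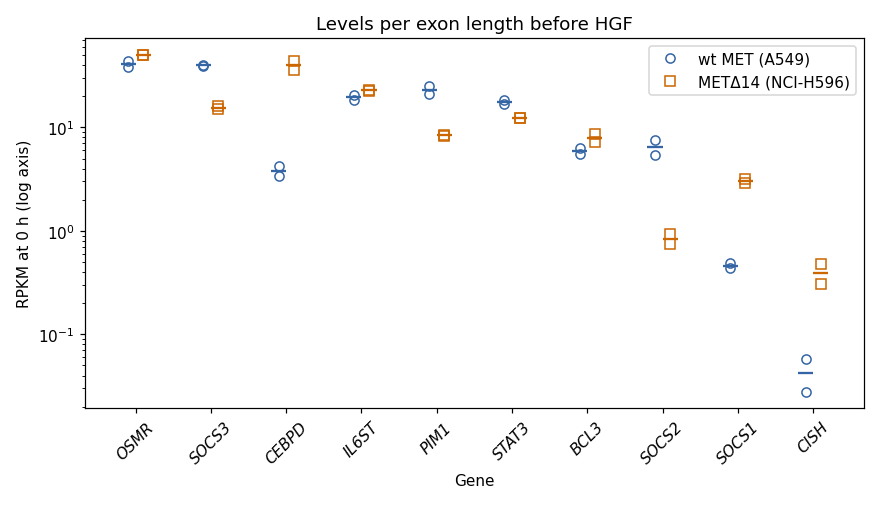
RPKM of the 10 genes at 0 h on a log axis, with genes along the horizontal axis ordered by their mean, circles for the 2 wt MET libraries, squares for the 2 MET∆14 libraries, and bars at each mean. CEBPD and SOCS1 lay higher with MET∆14 and SOCS3, PIM1 and SOCS2 higher with wt MET.

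With HGF the order moved. SOCS3 was the highest of the 10 in wt MET cells at 3 h (86.9 ± 0.240 RPKM, SD, n = 2) and at 6 h (65.0 ± 0.354), and OSMR was first again at 12 h (56.1 ± 1.51). In MET∆14 cells CEBPD (65.5 ± 1.62) passed OSMR (62.1 ± 0.302) at 3 h, and OSMR led at 6 h (74.6 ± 2.58) and 12 h (83.1 ± 8.44). CISH was the lowest of the 10 in every condition, at most 0.612 ± 0.0695 RPKM.

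Tested between the lines at 0 h with edgeR's quasi-likelihood test, the 10 genes were called, in a comparison in which 80.2% of the 15067 tested genes were. CISH had passed the filter on low counts only through the MET∆14 libraries, so that its call is no support for a difference. CEBPD stood highest with MET∆14 against wt MET (log2 difference 3.40 ± 0.212 SE, 10.6-fold, adjusted p = 8.28e-10), and SOCS2 lowest (-2.97 ± 0.157, adjusted p = 1.05e-10). SOCS1 was higher with MET∆14 (2.71 ± 0.322, adjusted p = 1.29e-06). CISH had 6 counts in the 2 wt MET libraries against 73 in those of MET∆14, a ratio of 9.59 when scaled for library size (95% exact interval 4.2 to 27, counting error only). BCL3 (0.43), OSMR (0.28) and IL6ST (0.23) were slightly higher with MET∆14, and PIM1 (-1.46), SOCS3 (-1.35) and STAT3 (-0.52) lower. The call was lost for IL6ST when replicate 1 of either line was left out (adjusted p = 0.159 for wt MET and 0.0677 for MET∆14), for OSMR when the wt MET replicate 2 was (0.0763) and for BCL3 when the MET∆14 replicate 2 was (0.0711). In such bulk samples, more cells of a type and more RNA per cell cannot be told apart.

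In cells expressing wt MET, the genes called at a single time were higher than at 0 h. At 3 h 3 of the 10 were higher than at 0 h (IL6ST, SOCS3 and BCL3) and 0 lower, against 17.4% of all tested genes called in either direction. At 6 h 5 were higher (also OSMR and SOCS2) and 0 lower, against 34.2% called. At 12 h 2 were higher (IL6ST and OSMR), against 35.1%. The members' median log2 change was 0.13 at 3 h, 0.40 at 6 h and 0.07 at 12 h, beside -0.04, -0.05 and -0.0019 over all tested genes. Over the 3 times together, 5 genes were called against 40.3% of all genes. Of these, IL6ST, OSMR, SOCS3 and BCL3 had a higher mean (19.2% of all genes) and STAT3 a lower one (21.1%). A change of at least 2-fold at some time was seen for IL6ST, SOCS3 and BCL3, 3 of 10 against 10.2%. Leaving out the 12 h MET∆14 replicate 1 gave 8 genes at 6 h, and leaving out either 12 h MET∆14 replicate gave 8 over the times, since all 16 libraries share 1 estimate of spread.

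In cells expressing MET∆14, both directions were seen. At 3 h 5 of the 10 were higher than at 0 h (IL6ST, OSMR, STAT3, SOCS1 and CEBPD) and 0 lower, against 31.7% of all tested genes. At 6 h 4 were higher (IL6ST, OSMR, SOCS1 and SOCS2) and 3 lower (SOCS3, BCL3 and CEBPD), against 44.1%. At 12 h 3 were higher (IL6ST, OSMR and SOCS2) and the same 3 lower, against 38.3%, and this count stayed at 6 without replicate 2 at 12 h. The members' median log2 change was 0.28, 0.36 and 0.07 at 3, 6 and 12 h, beside -0.05, -0.04 and -0.02 over all tested genes. Over the times, 8 genes were called against 54.1%, namely 5 with a higher mean (25.6% of all genes) and 3 with a lower one (28.5%), and CISH and PIM1 were not called. SOCS1 and CEBPD changed at least 2-fold at some time, 2 of 10 against 16%. The count at 3 h depended on single libraries and fell to 1 (SOCS1) without replicate 1 at 0 h, to 2 without replicate 2 at 0 h or replicate 1 at 3 h, and to 3 without replicate 2 at 3 h.

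**Figure D2:**
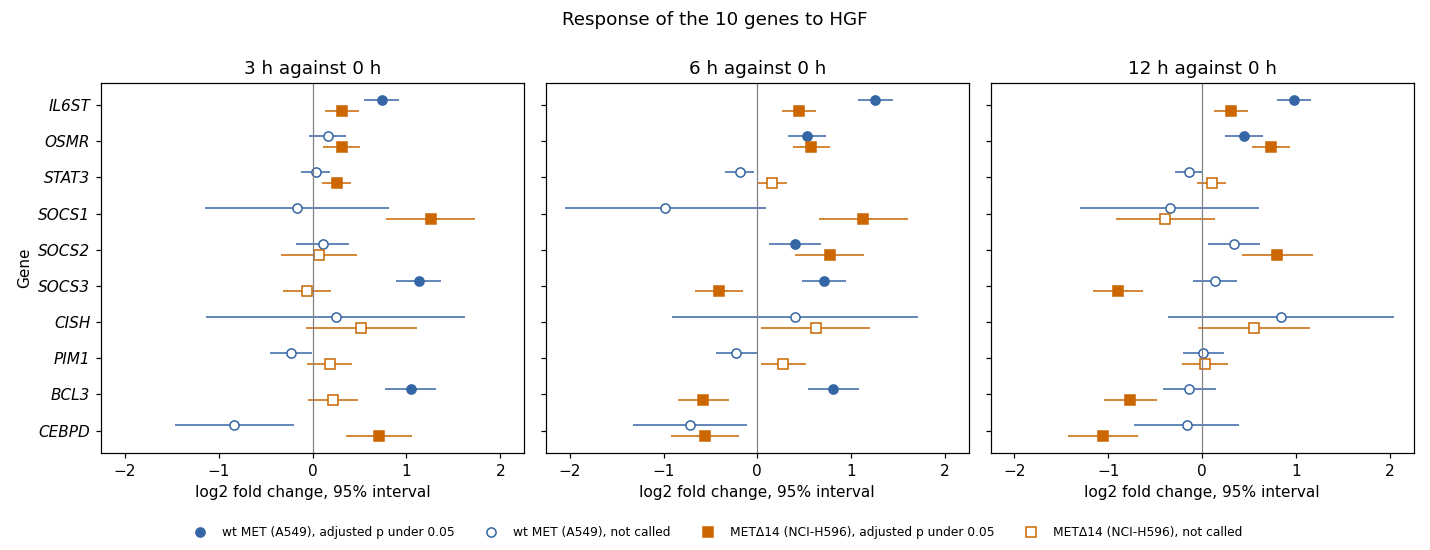
Log2 fold change of each gene against 0 h of the same line at 3, 6 and 12 h, with circles for wt MET, squares for MET∆14, bars for 95% intervals and filled symbols for an adjusted p under 0.05. SOCS3 and BCL3 lay to the right of 0 with wt MET at 3 and 6 h and to the left of 0 with MET∆14 at 6 and 12 h.

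IL6ST, the shared signal transducer of the family (chromosome 5, 55935095 to 55995022, minus strand), rose in both lines. In wt MET cells its libraries held 223 and 246 CPM at 0 h, 381 and 400.25 CPM at 3 h, 569.95 and 549.8 CPM at 6 h, and 471 and 453 CPM at 12 h. All 6 stimulated libraries lay above both at 0 h, with the highest at 6 h, where the log2 change was 1.255 ± 0.0869 (SE, 2.39-fold, adjusted p = 1.08e-07). With MET∆14 the values were 279 and 272 CPM at 0 h, 349 and 333 CPM at 3 h, 358 and 390 CPM at 6 h, and 359.75 and 322 CPM at 12 h. These groups did not overlap with 0 h either, but the rise was smaller, at most 0.44 ± 0.0857 at 6 h (adjusted p = 0.000673). The difference of the responses, MET∆14 minus wt MET, was -0.43 ± 0.121 at 3 h, -0.81 ± 0.121 at 6 h and -0.67 ± 0.121 at 12 h on the log2 scale (adjusted p = 0.0242, 0.000138 and 0.00106). The MET∆14 rise at 3 h (0.31, adjusted p = 0.0121) was no longer called without either 0 h replicate or replicate 1 at 3 h (adjusted p between 0.0573 and 0.0905), and the rise at 12 h (0.31, adjusted p = 0.0101, or 0.37 without replicate 2 at 12 h) not without either 0 h replicate (0.0536 and 0.0739). The difference at 3 h was lost without any of 5 libraries, namely the wt MET replicates 1 at 0 h (0.0852) and 2 at 3 h (0.0805), replicates 1 and 2 of MET∆14 at 0 h (0.0709 and 0.0526) and replicate 2 of MET∆14 at 3 h (0.0776). Of the exonic bases of IL6ST, 6.61% overlap an annotated gene on the opposite strand.

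OSMR, the chain that pairs with gp130 to bind oncostatin M (chromosome 5, 38845858 to 38945596, plus strand), rose in both lines. With wt MET it held 313 and 277 CPM at 0 h, 342 and 317 CPM at 3 h, 406 and 447 CPM at 6 h, and 395 and 409.9 CPM at 12 h. The libraries at 6 and 12 h lay above those at 0 h, with log2 changes of 0.53 ± 0.0942 (adjusted p = 0.000534) and 0.45 ± 0.0941 (0.00196), and the value at 3 h was 0.16 ± 0.0942 (0.276). With MET∆14 it held 357 and 361 CPM at 0 h, 444 and 447 CPM at 3 h, 522 and 548.6 CPM at 6 h, and 639 and 554 CPM at 12 h. Here no time overlapped with 0 h, and the change was 0.31 ± 0.0937 at 3 h (adjusted p = 0.0196), 0.58 ± 0.0938 at 6 h (0.000157) and 0.73 ± 0.094 at 12 h (2.87e-05). Without replicate 2 at 12 h the last was 0.82, and leaving out any 1 library at 0 or 3 h ended the call at 3 h (adjusted p between 0.0738 and 0.0987). The responses were not shown to differ between the lines. The difference was 0.15 at 3 h (95% interval -0.13 to 0.43) and 0.04 at 6 h (-0.24 to 0.33). At 12 h it was 0.29 (0.0022 to 0.57, adjusted p = 0.138). This last value depended on the 12 h MET∆14 libraries: dropping replicate 2 raised it to 0.38, whereas dropping replicate 1 lowered it to 0.18. Of the exonic bases of OSMR, 3.19% also belong to RICTOR, which is read from the other strand.

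STAT3 itself (chromosome 17, 42313324 to 42388540, minus strand) changed little. With wt MET the libraries held 191 and 206 CPM at 0 h, 203 and 203 CPM at 3 h, 178 and 170.4 CPM at 6 h, and 186 and 173 CPM at 12 h. The test over the 3 times called it (adjusted p = 0.0491, mean log2 change -0.10), though no single time was called, with the lowest adjusted p at 6 h (0.0546), where a call was made without any of 3 libraries, replicate 1 of wt MET at 0 h or either MET∆14 replicate at 12 h. With MET∆14 it held 139 and 138 CPM at 0 h, 165 and 166 CPM at 3 h, 153 and 156 CPM at 6 h, and 149 and 147 CPM at 12 h. The replicates were close and every stimulated library lay above 0 h, by 0.26 ± 0.0717 at 3 h (1.20-fold, adjusted p = 0.0124), but by less at 6 h (0.16, 0.0846, called without either replicate at 12 h) and 12 h (0.10, 0.299, and 0.10 without replicate 2 at 12 h). Leaving out any 1 library at 0 or 3 h ended the call at 3 h (adjusted p between 0.0588 and 0.0777), as did keeping all genes with a count (0.0523). At 6 h the responses differed by 0.35 ± 0.101 (adjusted p = 0.0169), while the test of the difference over the times did not call STAT3 (0.0622). That difference at 6 h was also lost with no filter on low counts (0.09) and without any of 7 libraries at 0 or 6 h (adjusted p between 0.0579 and 0.116).

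SOCS3, the inhibitor that binds gp130 and JAK kinases and a classical feedback target of STAT3 (chromosome 17, 78356778 to 78360077, minus strand), went in opposite directions in the 2 lines. In wt MET cells it held 107 and 110.1 CPM at 0 h, 238 and 237 CPM at 3 h, 178 and 177 CPM at 6 h, and 122 and 117 CPM at 12 h. It rose by 1.13 ± 0.111 at 3 h (2.19-fold, adjusted p = 5.9e-06) and 0.71 ± 0.11 at 6 h (0.00018), and was 0.14 ± 0.11 above 0 h at 12 h (0.366). Between 3 and 12 h it fell by 0.99 ± 0.11 on the log2 scale (adjusted p = 1.87e-05). In MET∆14 cells, which started lower, it held 41.4 and 43.6 CPM at 0 h, 39.0 and 42.5 CPM at 3 h, 30.5 and 33.5 CPM at 6 h, and 19.0 and 27.5 CPM at 12 h. The value at 3 h was -0.06 ± 0.118 (adjusted p = 0.755), and SOCS3 then fell by 0.41 ± 0.119 at 6 h (0.0117) and by 0.89 ± 0.124 at 12 h (5.93e-05). Without replicate 2 at 12 h the last change was -1.17, and the fall at 6 h was no longer called without replicate 2 at 0 h (adjusted p = 0.0793), without replicate 1 at 6 h (0.0911) or with the line fitted alone (0.0951). The difference of the responses was -1.19 ± 0.162 at 3 h, -1.12 ± 0.162 at 6 h and -1.03 ± 0.166 at 12 h (adjusted p = 0.000129, 0.00011 and 0.000433), and was called at each time whichever library was left out. Without replicate 2 of MET∆14 at 12 h the difference at 12 h was -1.30, and without replicate 1 it was -0.77.

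SOCS1, which inhibits JAK kinases directly (chromosome 16, 11254417 to 11256204, minus strand), was detected at an appreciable level only in MET∆14 cells. There its libraries held 5.15 and 5.71 CPM at 0 h, 15.4 and 10.9 CPM at 3 h, 11.2 and 12.6 CPM at 6 h, and 3.56 and 4.91 CPM at 12 h. The libraries at 3 and 6 h lay above, and those at 12 h below, both at 0 h. SOCS1 rose by 1.26 ± 0.224 at 3 h (2.39-fold, adjusted p = 0.000524) and by 1.13 ± 0.222 at 6 h (0.000755), and was at -0.39 ± 0.248 at 12 h (0.233), or -0.63 without replicate 2 at 12 h (0.0662). From 3 to 12 h it fell by 1.65 ± 0.237 on the log2 scale (adjusted p = 0.000155). The wt MET libraries held between 3 and 12 counts, or 0.202 to 0.868 CPM, in which a change of this size could not be followed (log2 change -0.17 at 3 h, 95% interval -1.15 to 0.81). The responses differed at 6 h by 2.11 ± 0.549 (adjusted p = 0.0087). With the 6 h wt MET replicate 2 left out, which had 3 counts, the difference was 1.54 and not called (0.0601). At 3 h the difference was 1.43 (0.0717), and was called without replicate 2 of MET∆14 at 3 h (0.0478) or either replicate at 12 h (0.0397 and 0.0429).

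SOCS2, known above all as the inhibitor of growth hormone signalling (chromosome 12, 93569814 to 93583487, plus strand), was much higher in wt MET cells and rose later. With MET∆14 it held 6.00 and 4.87 CPM at 0 h, 5.37 and 5.89 CPM at 3 h, 8.53 and 9.73 CPM at 6 h, and 9.14 and 9.73 CPM at 12 h. The 3 h libraries fell between those at 0 h, and the 6 and 12 h libraries lay above them, by 0.77 ± 0.172 (1.71-fold, adjusted p = 0.00202) and 0.80 ± 0.177 (0.00232). Without replicate 2 at 12 h the latter was 0.75. From 3 to 12 h SOCS2 rose by 0.73 (adjusted p = 0.00758), which was not called without replicate 1 at 3 h (0.66, adjusted p = 0.0667). With wt MET it held 35.2 and 49.3 CPM at 0 h, 45.1 and 46.1 CPM at 3 h, 56.3 and 55.3 CPM at 6 h, and 55.6 and 51.5 CPM at 12 h. The 0 h replicates lay far apart and all libraries at 6 and 12 h lay above them. The rise at 6 h (0.40 ± 0.129, adjusted p = 0.0267) was not called without replicate 1 at 0 h (0.18, adjusted p = 0.303) or without replicate 1 or 2 at 6 h (0.101 and 0.0825), and at 12 h the value was 0.34 ± 0.129 (0.0517), or 0.60 and called without replicate 2 at 0 h (0.00255). Without that library the change at 3 h was 0.40 (0.042). The difference between the lines was 0.37 at 6 h (95% interval -0.09 to 0.83) and 0.46 at 12 h (-0.0075 to 0.93), neither of them called, though both were without replicate 1 of wt MET at 0 h (adjusted p = 0.0204 and 0.0147). SOCS2 shares 4.28% of its exonic bases with SOCS2-AS1 on the opposite strand.

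CISH, an inhibitor of the same family that is best known as a target of STAT5 (chromosome 3, 50606489 to 50611774, minus strand), was the least abundant of the 10. It passed the filter on low counts through the MET∆14 libraries, where it held 1.56 and 2.43 CPM at 0 h, 2.61 and 3.17 CPM at 3 h, 2.84 and 3.34 CPM at 6 h, and 3.07 and 2.87 CPM at 12 h. Each stimulated library lay above both at 0 h, but the change was not called at any time (log2 change 0.52, 0.62 and 0.56, adjusted p = 0.171, 0.0769 and 0.132), except at 6 h without replicate 2 at 0 h (0.0462). Without replicate 2 at 12 h the change at 12 h was 0.58. The wt MET libraries held 2 to 8 counts, and the log2 change at 12 h of 0.84 had a 95% interval of -0.36 to 2.05. CISH shares 4.31% of its exonic bases with MAPKAPK3 on the opposite strand.

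BCL3, an IκB family protein that acts with NF-κB in the nucleus and is induced by STAT3 (chromosome 19, 44747705 to 44760044, plus strand), rose with wt MET and fell with MET∆14. In wt MET cells it held 19.5 and 17.0 CPM at 0 h, 37.7 and 37.7 CPM at 3 h, 32.1 and 31.8 CPM at 6 h, and 14.8 and 18.6 CPM at 12 h. It rose by 1.05 ± 0.128 at 3 h (2.07-fold, adjusted p = 4.68e-05) and 0.81 ± 0.128 at 6 h (0.000204). At 12 h the libraries overlapped with 0 h again (-0.14 ± 0.132, 0.46), and from 3 to 12 h the level fell by 1.18 ± 0.127 on the log2 scale (1.4e-05). In MET∆14 cells it held 22.5 and 26.5 CPM at 0 h, 29.6 and 27.6 CPM at 3 h, 16.7 and 16.3 CPM at 6 h, and 15.5 and 13.2 CPM at 12 h. Both later times lay below 0 h, by -0.57 ± 0.127 at 6 h (adjusted p = 0.0019) and -0.77 ± 0.131 at 12 h (0.000342), while 3 h stood at 0.22 ± 0.124 (0.202). Without replicate 2 at 12 h the change at 12 h was -0.68. The responses differed by -0.83 ± 0.178 at 3 h (adjusted p = 0.00436), -1.385 ± 0.18 at 6 h (4.39e-05) and -0.63 ± 0.186 at 12 h (0.0226). The last was lost when any of 3 libraries was left out, the wt MET replicates 2 at 0 h (0.0801) and 12 h (0.112) and the MET∆14 replicate 2 at 0 h (0.108). Of the exonic bases of BCL3, 2.1% also belong to the microRNA gene MIR8085.

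CEBPD, a C/EBP transcription factor of the acute phase response (chromosome 8, minus strand), had the widest course in MET∆14 cells. It held 45.3 and 55.1 CPM at 0 h, 80.6 and 83.5 CPM at 3 h, 33.5 and 34.7 CPM at 6 h, and 18.4 and 30.9 CPM at 12 h. No stimulated time overlapped with 0 h, first above and then below it. The log2 change was 0.71 ± 0.164 at 3 h (1.63-fold, adjusted p = 0.00418), -0.56 ± 0.168 at 6 h (0.014) and -1.06 ± 0.175 at 12 h (0.000278), and from 3 to 12 h the level fell by 1.76 ± 0.175 (7.5e-06). Without replicate 2 at 12 h, the change at 12 h was -1.46. The rise at 3 h was not called without replicate 1 at 0 h (adjusted p = 0.069), and the fall at 6 h not without replicate 2 at 0 h (0.146), replicate 1 or 2 at 6 h (0.0765 and 0.0635) or with the line fitted alone (0.0746). In wt MET cells CEBPD was lower at each time, 10.6-fold at 0 h. It held 5.28 and 4.24 CPM at 0 h, 2.80 and 2.51 CPM at 3 h, 3.27 and 2.49 CPM at 6 h, and 4.14 and 4.37 CPM at 12 h. Its libraries at 3 and 6 h lay below those at 0 h (log2 change -0.83 ± 0.298 and -0.72 ± 0.285), which was not called (adjusted p = 0.0685 and 0.0662) but was called under DESeq2, with no filter on low counts, with the line fitted alone and without either replicate of MET∆14 at 12 h. The responses differed at 3 h by 1.54 ± 0.339 (adjusted p = 0.00547). At 12 h the difference was -0.89 ± 0.315 (adjusted p = 0.0526). Its size depended on the 12 h MET∆14 libraries: dropping replicate 2 made it -1.29, whereas dropping replicate 1 made it -0.54.

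PIM1, a serine/threonine kinase that promotes survival (chromosome 6, 37170152 to 37175428, plus strand), was called at no time in either line. With wt MET its libraries held 76.6 and 63.6 CPM at 0 h, 57.9 and 61.4 CPM at 3 h, 58.9 and 61.1 CPM at 6 h, and 71.4 and 69.8 CPM at 12 h. With MET∆14 they held 25.2 and 25.6 CPM at 0 h, 29.6 and 28.2 CPM at 3 h, 27.8 and 33.4 CPM at 6 h, and 24.6 and 27.6 CPM at 12 h. The libraries at 3 and 6 h lay below 0 h with wt MET and above it with MET∆14, with log2 changes at 6 h of -0.22 ± 0.104 (adjusted p = 0.111) and 0.28 ± 0.11 (0.053). Either became called at an adjusted p between 0.0189 and 0.0455 when certain single libraries were left out, among them replicate 1 of MET∆14 at 12 h for both. The difference of the responses was called at 6 h (0.50 ± 0.151, adjusted p = 0.0202) and over the times (0.0241). At 6 h it was lost without any of 6 libraries, 3 of each line at 0 or 6 h, with a lowest value of 0.33 (adjusted p = 0.179) without replicate 2 of MET∆14 at 6 h.

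**Figure D3:**
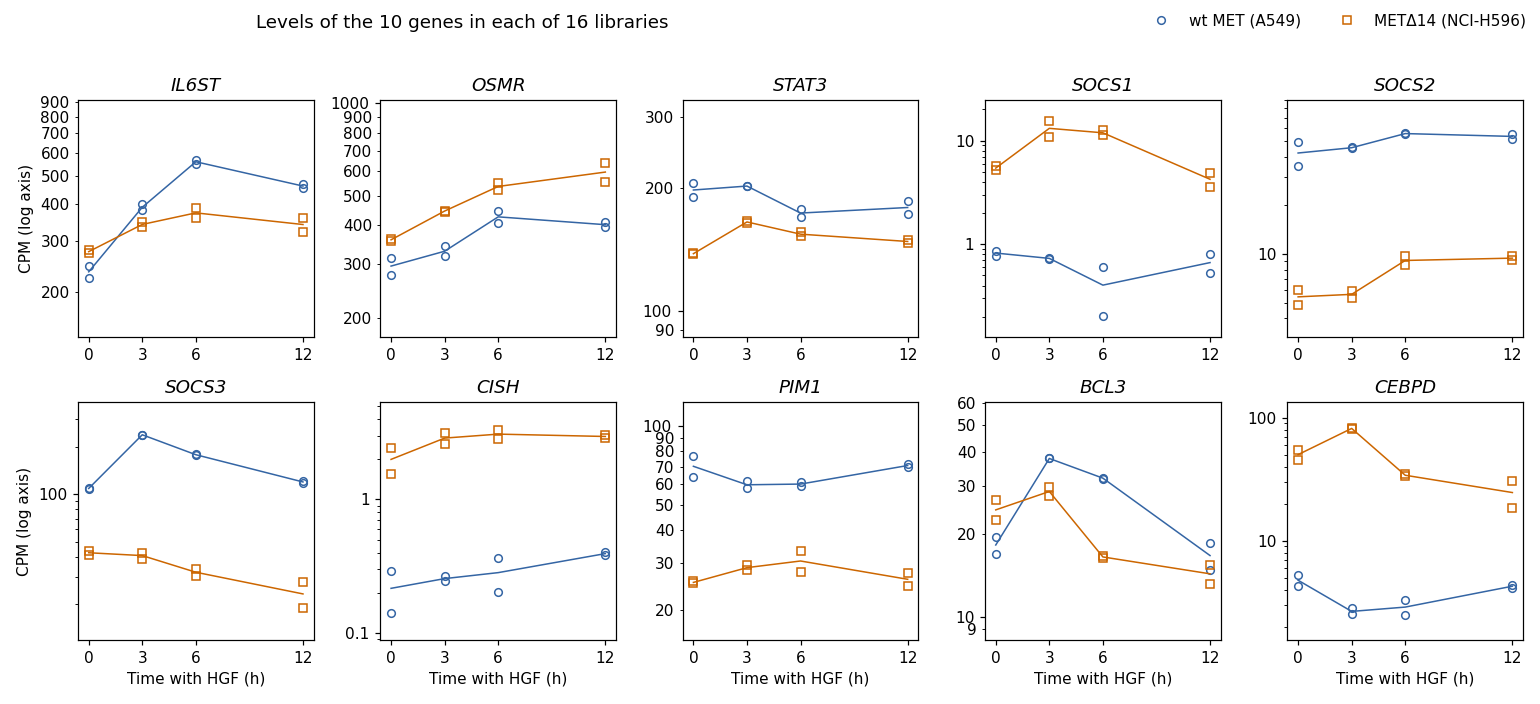
CPM of each gene on a log axis against hours of HGF in all 16 libraries, with circles for wt MET, squares for MET∆14 and lines through the means of the 2 replicates; the axis range differs between panels. SOCS3 and BCL3 peaked at 3 h with wt MET, SOCS1 and CEBPD at 3 h with MET∆14, and OSMR climbed in both lines.

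Set side by side, the 2 lines differed in their response for 6 of the 10 genes over the 3 times (IL6ST, SOCS1, SOCS3, PIM1, BCL3 and CEBPD), against 37.6% of all tested genes, and 4 of these (SOCS1, SOCS3, BCL3 and CEBPD) by at least 2-fold at some time, against 14.8%. By time, 4 genes differed at 3 h against 17.4% of all genes, 6 at 6 h against 30.2% and 3 at 12 h against 24%. At 3 h MET∆14 gave the lower response for IL6ST, SOCS3 and BCL3 and the higher one for CEBPD. At 6 h it gave the lower response for the same 3 genes and the higher one for STAT3, SOCS1 and PIM1, and at 12 h the lower one for IL6ST, SOCS3 and BCL3. Leaving out the 6 h wt MET replicate 2 gave 3 genes at 6 h, and leaving out the 12 h MET∆14 replicate 2 gave 5 at 12 h, with OSMR and CEBPD added. From 3 to 12 h, 3 genes changed with wt MET (OSMR higher, SOCS3 and BCL3 lower) against 19.9% of all genes, and 6 with MET∆14 (OSMR and SOCS2 higher, SOCS1, SOCS3, BCL3 and CEBPD lower) against 27.9%. The wt MET count became 7 when the 12 h MET∆14 replicate 1 was left out and 6 when replicate 2 was, and the OSMR call in it (0.29 ± 0.0939, adjusted p = 0.0433) was lost without any 1 of 13 libraries (adjusted p between 0.0505 and 0.295). In an additive model of cell line and time, which is the formula of the study, 6 genes (IL6ST, OSMR, SOCS1, SOCS2, SOCS3 and BCL3) had a time effect, against 30.6%. In that model the mean time effect of SOCS3 was 0.07 and that of BCL3 0.07, for genes whose separate changes ran from 1.13 to -0.89 and from 1.05 to -0.77.

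**Figure D4:**
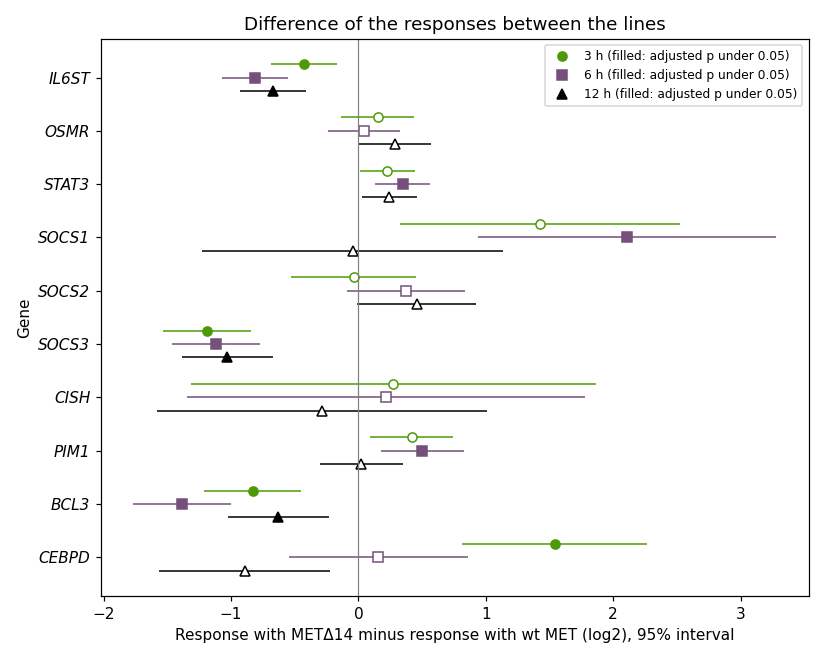
Difference of the log2 responses, MET∆14 minus wt MET, at 3 h (circles), 6 h (squares) and 12 h (triangles), with 95% intervals and filled symbols for an adjusted p under 0.05. IL6ST, SOCS3 and BCL3 lay left of 0 at all 3 times, and the intervals of CISH and SOCS1 were the widest.

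The other genes of the pathway were taken from a list of 63, of which 58 were tested. In wt MET cells 29 of them changed over the times (18 higher, 11 lower), against 40.3% of all tested genes, and in MET∆14 cells 42 did (22 higher, 20 lower), against 54.1%. The counts by role that follow are over the times too and stand beside 19.2% of all genes higher and 21.1% lower with wt MET, and 25.6% higher and 28.5% lower with MET∆14. Among those with more than 3 counts in some library of the line, the median log2 change was 0.09 with wt MET (55 genes, beside -0.05 over 14400 genes) and -0.07 with MET∆14 (54 genes, beside -0.06 over 14629 genes). The responses of 25 of the 58 differed between the lines, against 37.6% of all genes, 11 being higher and 14 lower with MET∆14.

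Among the 7 tested ligands of the family, 3 were higher and 0 lower with wt MET, and 4 higher and 0 lower with MET∆14. IL11 changed most with wt MET, from 284 and 281 CPM at 0 h to 1913 and 2337 CPM at 6 h (log2 change 2.91 ± 0.134, adjusted p = 1.67e-09). With MET∆14, where it held 2.48 and 3.33 CPM at 0 h, IL11 was 8.39 and 10.1 CPM at 3 h (1.66 ± 0.207, 2.15e-05). LIF changed most with MET∆14, from 4.56 and 4.67 CPM at 0 h to 49.2 and 47.3 CPM at 3 h (3.38 ± 0.144, adjusted p = 1.81e-09), and was back at 6.29 and 4.08 CPM at 12 h. With wt MET, LIF started at 158 and 183 CPM and reached 365 and 401 CPM at 6 h (1.17 ± 0.106, 1.59e-06).

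Of the 7 other receptor genes, 3 were higher and 1 lower with wt MET and 2 higher and 1 lower with MET∆14. LIFR, the leukemia inhibitory factor receptor, which pairs with gp130 as OSMR does, rose with MET∆14 from 49.3 and 44.8 CPM at 0 h to 88.4 and 92.0 CPM at 6 h (0.94 ± 0.119, adjusted p = 1.51e-05). With wt MET it reached 68.7 and 69.8 CPM at 12 h, from 40.7 and 36.5 CPM at 0 h (0.84 ± 0.122, 0.00012).

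The 4 JAK kinases gave 0 higher and 1 lower call with wt MET (JAK3, at 3 to 15 counts) and 1 higher and 2 lower calls with MET∆14. Among the latter was TYK2, whose mean change was -0.13 (adjusted p = 0.0116 over the times). Of the 6 other STAT genes 2 were lower with wt MET and 4 with MET∆14, and 0 were higher. STAT2, which acts in interferon signalling, fell with MET∆14 from 99.5 and 85.6 CPM at 0 h to 41.0 and 45.1 CPM at 6 h (-1.10 ± 0.156, adjusted p = 5.03e-05). STAT6 fell with wt MET from 59.2 and 50.5 CPM at 0 h to 33.6 and 35.3 CPM at 12 h (-0.67 ± 0.151, 0.00326).

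Of 12 other inhibitors of the pathway, 4 were higher and 2 lower with wt MET and 7 higher and 4 lower with MET∆14. PTPN6, the phosphatase SHP-1, fell in both, by 1.99 ± 0.23 on the log2 scale at 12 h with wt MET (7.81 and 6.43 to 1.86 and 1.68 CPM, adjusted p = 1.88e-05) and by 1.28 ± 0.17 at 6 h with MET∆14 (22.0 and 21.0 to 9.06 and 8.65 CPM, 2.37e-05). Of 22 other genes known as STAT3 targets, many of which answer to other factors too, 8 were higher and 5 lower with wt MET, and 8 higher and 9 lower with MET∆14. JUNB, an AP-1 subunit, rose with wt MET from 57.9 and 57.8 CPM at 0 h to 827 and 898 CPM at 3 h (3.90 ± 0.129, adjusted p = 3.04e-11), while with MET∆14 it held 224 and 239 CPM at 0 h and 258 and 237 CPM at 3 h (0.10 ± 0.114, 0.567). The JUNB responses differed at 3 h by -3.80 ± 0.168 (adjusted p = 4.86e-09). Of the 22 genes, 4 had a higher and 4 a lower response with MET∆14 at 3 h, against 17.4% of all tested genes called. FOSL1, another AP-1 subunit, rose by 3.04 ± 0.151 with MET∆14 at 3 h (5.39e-09) and by 1.25 ± 0.139 with wt MET (1.85e-05).

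**Figure D5:**
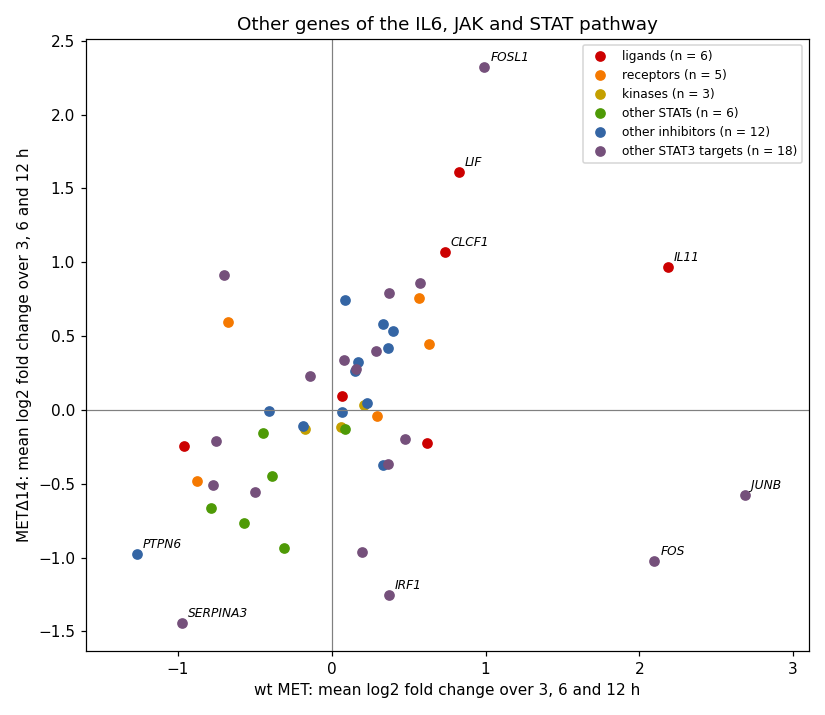
Mean log2 fold change over 3, 6 and 12 h with wt MET (horizontal) and MET∆14 (vertical) for 50 of the 58 tested pathway genes, 1 point a gene, coloured by role, with names where either mean was at least 1 in size. Another gene, and 7 genes with at most 3 counts in every library of a line, are not drawn. JUNB and FOS lay far to the right and below 0, and FOSL1 and LIF highest.

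For each of the 10 genes, the pair of other genes closest in its 6 log2 changes (3 times in 2 lines) was taken from 9630 genes whose mean log2 CPM reached 3, as a description with no test. The closest to SOCS3 were EPC1 (root mean square difference 0.181) and FAM53C (0.229), and FAM53C (0.268) stood beside PIM3 (0.265), a kinase of the PIM family, next to BCL3. EPC1 changed by 0.96, 0.74 and 0.24 with wt MET and by -0.41, -0.38 and -0.70 with MET∆14 at 3, 6 and 12 h. The closest to SOCS1 were DUSP4 (0.291), a phosphatase of MAP kinases, and BDNF (0.33), and those to CEBPD were CLDN1 (0.305) and SOX7 (0.334), so that none came as near as for the other genes. DUSP4 rose by 1.27 with MET∆14 at 3 h and was at -0.55 with wt MET. NUP58 (0.133) and RUNX1 (0.145) were nearest to IL6ST, NUP188 (0.0803) and ACOT9 (0.0891) to OSMR, ARF3 (0.0578) and EIF3E (0.0626) to STAT3, RPGR (0.0997) and MPHOSPH6 (0.115) to SOCS2, HCFC2 (0.107) and ZNF518B (0.128) to CISH, and RPL27 (0.0427) and NDUFAB1 (0.044) to PIM1. Genes that changed little, such as STAT3 and PIM1, have many close neighbours by this measure. The wt MET changes of CISH (2 to 8 counts per library) and SOCS1 (3 to 12 counts) are imprecise, and the neighbours of both are therefore uncertain.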

How the data were processed

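Poly(A) RNA of 16 libraries was sequenced by the authors, who mapped the reads to hg38 and deposited whole-number read counts per gene, not normalized. The submitters' processing notes name STAR 2.5.0 and RSEM 1.3.2; annotation and strand setting are not given in the sources used here, so genes that overlap others on the opposite strand are uncertain. The table spells the wt MET line a little differently from the titles, and its columns were matched by the rest of the name.

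From the deposited counts, edgeR 4.0.16 (with limma 3.58.1, in R 4.3.3) kept 15067 genes through filterByExpr (minimum count 10, minimum total 15), and counts were scaled by TMM. A robust quasi-likelihood model was fitted over all 16 libraries, with 1 coefficient per line and time. F tests compared each time with 0 h, all 3 times together, and the difference of the responses between the lines. Standard errors were the absolute log2 fold change divided by the square root of F, and p-values received the Benjamini-Hochberg adjustment over all tested genes (threshold 0.05). The p-values rest on the spread between the 2 libraries of a condition. It was estimated for each gene over all 16 libraries of both lines and drawn towards that of other genes. CPM use TMM-scaled library sizes, and RPKM divide them by the union exon length of GENCODE 44. The 10 genes and the pathway list were chosen with earlier results of these data known. The text names the 10 genes, in each role of the pathway list the called gene with the largest mean change in each line, and 2 similar genes per member. A pathway gene that this rule names and the upstream windows of members other than CISH and SOCS1 are not reported here. Replicate numbers did not pair the libraries (correlations of deviations between conditions of a line from -0.159 to 0.035 in 12 pairs, 0 over 0.1). Replicates differed by more than sampling noise (chi-square per degree of freedom 2.795 to 34.5). Counts of 14785 genes were simulated, 200 of them changed 2-fold with MET∆14 at 3 h. The test of MET∆14 at 3 h recovered 100% of these and made 8 false calls. Recovery was lower, at 93.5%, for the difference of the responses at 3 h. The time effect of the additive model, in edgeR, found only 19% of them. Changes smaller than 2-fold were not simulated, so that the recovery of the smaller changes reported here was not tested. Alternatives were DESeq2 1.42.0, its size factors in edgeR, other filters, a minimum log2 change of 1, a replicate block, each line alone and each library left out. The same alternatives for the differences and for 12 against 3 h of each gene were chosen after seeing the data. The exact interval of the CISH ratio covers counting error only. The intervals of log2 changes were built from the standard errors above and include the estimated spread between libraries. Coordinates are 1-based on hg38.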

Additional observations from a re-analysis of the deposited data

Results flagged for a closer look

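The following genes were set apart because the test of the difference of the responses between the lines called them, over the 3 times or at 1 of them. Values are the log2 response with MET∆14 minus that with wt MET at the time of the largest difference, with the adjusted p of edgeR's test at that time. SOCS1 differed by 2.11 at 6 h (adjusted p = 0.0087), on 3 to 12 counts per library with wt MET. CEBPD differed by 1.54 at 3 h (adjusted p = 0.00547). BCL3 differed by -1.385 at 6 h (adjusted p = 4.39e-05) and SOCS3 by -1.19 at 3 h (adjusted p = 0.000129). IL6ST, which rose in both lines, differed by -0.81 at 6 h (adjusted p = 0.000138). PIM1 differed by 0.50 at 6 h (adjusted p = 0.0202), although its change was called in neither line. STAT3 differed by 0.35 at 6 h (adjusted p = 0.0169), with an adjusted p over the 3 times of 0.0622. The line and the form of MET cannot be told apart in any of them.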

How the results depend on the processing

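With 2 libraries per condition, and 1 estimate of spread shared by all 16, calls of small changes are the least certain, and CISH and SOCS1 in wt MET cells are limited by 2 to 12 counts. Of 430 alternative counts of called genes 400 were within 1.5 times of the reported one, and of 2572 alternative log2 values 2399 kept their direction and their call, 62 gained a call, 68 lost it and 43 changed sign. The replicate number as a block (replicate block), which pairs nothing in these data, left each count within 1.5 times: it called 4 genes over the times with wt MET, 7 with MET∆14 and 6 for the difference. Among the single comparisons of a gene it ended 1 call, OSMR at 12 against 3 h with wt MET (0.29, adjusted p = 0.0519), and added 1, the CEBPD difference at 12 h (-0.90, adjusted p = 0.0452).

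A minimum absolute log2 change of 1 left, with wt MET, 1 gene at 6 h, 0 at 12 h, 1 for 12 against 3 h and 3 over the times, and with MET∆14, 1 gene each at 3, 6 and 12 h, 2 for 12 against 3 h and 2 over the times. Of all 15067 tested genes it left, in the same order, 1069, 1096, 581 and 1537 with wt MET. With MET∆14 it left 1101, 1779, 1358, 820 and 2406 of them. It left 2, 3 and 1 genes for the differences at 3, 6 and 12 h, 6 genes between the lines at 0 h, 0 genes of the additive model, and 12, 16 and 12 genes of the pathway list with wt MET, with MET∆14 and for the difference. With the wt MET line fitted alone, 6 genes were called for 12 against 3 h and 8 over the times. Leaving out 1 library gave 4 to 8 genes for wt MET at 6 h, 2 to 7 for 12 against 3 h, 4 to 8 over the times, 1 to 5 for MET∆14 at 3 h, and 3 to 6 and 2 to 5 for the differences at 6 and 12 h.

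Values that changed sign were all uncalled. The ranges that follow also span values that kept their sign, of which 0.40 for SOCS2 at 3 h with wt MET was called. Leaving out 1 library gave, with wt MET, -0.021 to 0.12 for STAT3, -0.11 to 0.40 for SOCS2 and -0.15 to 0.82 for CISH at 3 h, -0.063 to 0.98 for CISH at 6 h, and -0.12 to 0.15 for PIM1, -0.31 to 0.021 for BCL3 and -0.32 to 0.0029 for CEBPD at 12 h. With MET∆14 it gave -0.081 to 0.22 for SOCS2 and -0.13 to 0.0065 for SOCS3 at 3 h, and -0.060 to 0.12 for PIM1 at 12 h. For the differences it gave -0.32 to 0.19 for SOCS2 and -0.30 to 0.67 for CISH at 3 h; -0.054 to 0.10 for OSMR, -0.36 to 0.68 for CISH and -0.047 to 0.34 for CEBPD at 6 h; and -0.36 to 0.25 for SOCS1, -0.86 to 0.13 for CISH and -0.12 to 0.15 for PIM1 at 12 h. For 12 against 3 h it gave -0.50 to 0.11 for SOCS1 with wt MET, and -0.087 to 0.063 for IL6ST and -0.10 to 0.19 for CISH with MET∆14. With at least 10 counts in every library the difference was -0.021 for OSMR at 6 h and -0.020 for PIM1 at 12 h. IL6ST at 12 against 3 h with MET∆14 was 0.0048 with DESeq2's size factors and 0.0057 with DESeq2. The causes were not tested.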
